A study of Mus musculus with 18 samples.

Results

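Induced beta cells collected at day 30 were compared with endogenous beta cells of the mouse pancreas, 3 arrays against 3, across all genes of a mouse beadchip. The 6 arrays were chosen by their labels alone and are part of 18 arrays in 6 groups, which also hold acinar cells and induced cells at day 10, day 60 and 7 months. Of 18118 gene symbols on the array, 8942 passed a filter on low signal and were tested.

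The induced cells came from the pancreas of Rag1-/- mice, which lack mature T and B cells, 30 days after adenovirus was injected into the splenic lobe; the labels do not name the genes it carried. Islets were first taken out, the remaining acinar tissue was digested to single cells with liberase and elastase, and cells with Cherry fluorescence were sorted. The endogenous beta cells were also from the pancreas of Rag1-/- mice, and the labels do not say how they were separated from other islet cells. The sex and age of the mice are not given, nor is the source of each array's RNA, and if arrays of 1 group share an animal or a pool the p-values here reflect technical spread.

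As background, beta cells make insulin as a precursor, cut it with prohormone convertases and store it in dense-core granules packed with proteins of the granin family. Glucose enters through a transporter, and its breakdown closes potassium channels, opens calcium channels and releases the granules. Acinar cells, the digestive enzyme factories of the same organ, keep their own secretory programme under the transcription factor Ptf1a. Heat shock proteins are chaperones that cells make when proteins misfold, and immediate early genes are transcription factors and regulators switched on within minutes of a stimulus, including the stress of tissue digestion.

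The arrays of each of the 2 groups were very alike. Across the tested genes the 3 day 30 arrays correlated with each other at 0.998 and the 3 endogenous beta arrays at 0.998, while a day 30 array and an endogenous beta array correlated at 0.805 to 0.807. Detection at a p-value under 0.01 was reached by 7644 to 7745 symbols on the day 30 arrays, against 7319 to 7406 on the endogenous beta arrays. The spread used in the tests was pooled over all 18 arrays. The day 60 and 7-month arrays stand apart there, since each day 60 array correlated at 0.996 to 0.997 with the 7-month array of the same number but at 0.975 to 0.984 with all other arrays of these 2 groups. Fitted without the 7-month arrays, 6806 genes were called in place of 6653, and with the 6 compared arrays alone 7070 were called. Sex chromosome genes also differed, with 3 Y-linked genes lower at day 30 out of 4 tested. Eif2s3y, a translation factor gene of the Y chromosome, had signals of 143, 146 and 134 on day 30 arrays, against 995, 979 and 980 on endogenous beta arrays. Xist, the RNA of the inactive X chromosome, was measured on 1 of 3 day 30 arrays and on 0 of 3 endogenous beta arrays. What part the mice's sex has in other differences was not tested.

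Differences were wide in this comparison. With limma and a Benjamini-Hochberg adjusted p under 0.05, 6653 of 8942 tested genes were called (74.4%), 3088 higher in the induced cells (34.5%) and 3565 lower (39.9%). Of these, 2713 (30.3%) also differed at least 2-fold, 1345 higher (15%) and 1368 lower (15.3%). The normalized levels of the groups did not overlap for 7699 genes (86.1%). Very large rises outnumbered very large falls: 259 genes were called at least 8-fold higher and 85 at least 8-fold lower, and past 64-fold the counts were 38 and 12. The median difference over all tested genes was -0.05 on the log2 scale, on which 1 means 2-fold, and differences below are on this scale of background-corrected, quantile-normalized signals unless a deposited signal is named. A gene counts as measured on an array when its deposited signal reaches that of the dimmest gene detected there, a threshold of 87.0 to 94.9 on these 6 arrays. Where no array of the dimmer group measured a gene, the fold is given as "at least", from the brighter mean against the threshold or the gene's own level, whichever was higher. Such a bound applied to 777 genes that were higher and 527 that were lower. Each bound holds only for the background correction used here. Of 55 named genes with a bound, 50 had a fitted fold below it with no background correction and 55 when limma itself estimated the control probes (limma's own controls), a setting in which 49 kept their call and direction.

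**Figure D1:**
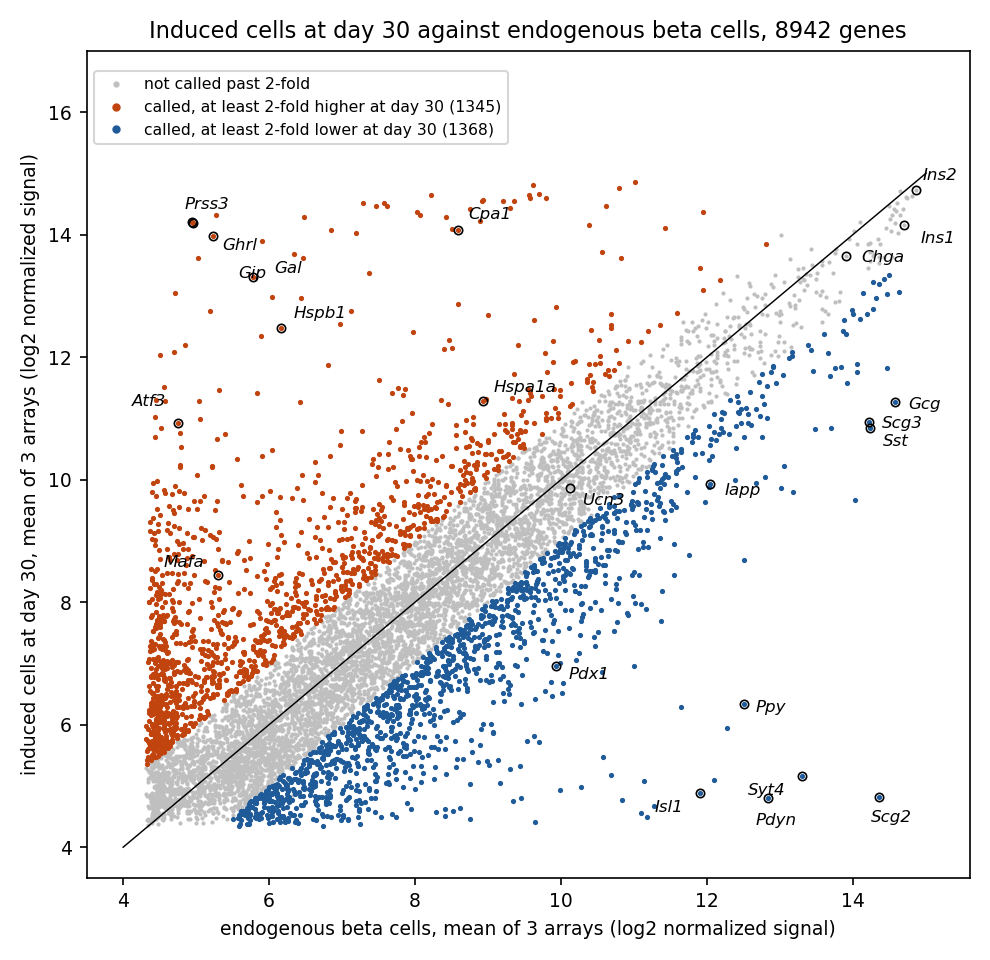
Mean log2 normalized signal in induced cells at day 30 (vertical axis) against endogenous beta cells (horizontal axis) for 8942 genes, each point a gene and each mean over 3 arrays. Genes called past 2-fold are orange where higher at day 30 and blue where lower, and labelled genes such as Prss3, Ghrl and Scg2 lie farthest from the diagonal of equal levels while Ins2 lies near it.

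The insulin genes had signals in the induced cells like those in endogenous beta cells. Ins2, 1 of the 2 mouse insulin genes, had signals of 28310, 27554 and 27130 on day 30 arrays, against 27222, 27106 and 25131 on endogenous beta arrays. Ins1, the other insulin gene, had 21136, 21393 and 20008 at day 30, against 21782, 21705 and 21169 in endogenous beta cells. In acinar cells neither insulin gene had a signal above 63.6. Whether signals as bright as those of Ins1 and Ins2 still rise in proportion to the message was not tested. Ins2 was not called (difference -0.16 ± 0.20, SE, adjusted p = 0.487 by limma), but with the 6 arrays alone it was called lower (-0.17, adjusted p = 0.00463 by limma). The SE pools all 6 groups, and the SD of Ins2 was 0.62 in acinar cells, 0.016 at day 30 and 0 in endogenous beta cells. On each endogenous beta array the log2 normalized signal was 14.875 for Ins2 and 14.697 for Ins1. Quantile normalization sets such values by rank on the array, so they do not show how far the groups lay apart in deposited signal. Ins1 fell by 0.54 on the log2 scale after quantile normalization, a call that was lost with median scaling (-0.09) and with the deposited log10 values (-0.05). Chga, chromogranin A of the granule core, had higher raw signals at day 30 (15584, 15960 and 15783 at day 30, against 12733, 11948 and 12911 in endogenous beta cells) but a difference of -0.26, not called, which turned to 0.29 with median scaling and 0.33 with the deposited log10 values. Chga was called higher under both of these scalings (adjusted p = 0.0162 and 0.00209 by limma) and lower in 5 alternatives, among them the 6 arrays alone (-0.24). The direction of Ins2 and Chga thus changed with the scaling, while Ins1 kept its negative sign.

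Ucn3, urocortin 3, a peptide that marks mature beta cells in mice, lay a little under the level of endogenous beta cells. Its signals were 1343, 1208 and 1282 on day 30 arrays, against 1437, 1465 and 1573 on endogenous beta arrays. The arrays of the groups do not overlap, yet the difference of -0.26 ± 0.15 (SE) was not called (adjusted p = 0.117 by limma). It was called lower in 6 of 18 alternative settings, with adjusted p from 0.00328 to 0.254 over the alternatives. In acinar cells Ucn3 was not measured on any array.

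Scg2, secretogranin II, a granin of dense-core granules, showed the largest fall of all tested genes. Its signals were 71.7, 75.8 and 77.9 on day 30 arrays, against 15462, 15420 and 15047 on endogenous beta arrays. All 3 day 30 signals lie under the threshold of their array, so Scg2 was at least 522-fold lower with this background correction (difference -9.54 ± 0.17, SE, adjusted p = 1.22e-16). Without the correction the difference was -8.27. Chgb, secretogranin I, is also a granin, and its signals lie side by side: 11451, 11996 and 11470 on day 30 arrays, against 13086, 11748 and 11119 on endogenous beta arrays. Its difference of -0.75 was called, but not with median scaling (-0.08) or the deposited log10 values (-0.04). Their promoters are shown because both hold the palindrome TGACGTCA, the cyclic AMP response element bound by CREB. The 250 bases before each start site, from RefSeq on GRCm38.p6, are shown with the element in capitals, Scg2 at chr1:79440027-79440276 on the minus strand and Chgb at chr2:132781392-132781641 on the plus strand.
Scg2: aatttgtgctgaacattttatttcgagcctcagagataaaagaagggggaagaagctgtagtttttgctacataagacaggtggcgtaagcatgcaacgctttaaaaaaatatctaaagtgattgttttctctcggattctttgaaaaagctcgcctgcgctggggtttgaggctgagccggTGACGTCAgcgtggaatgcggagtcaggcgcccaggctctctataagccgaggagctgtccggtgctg
Chgb: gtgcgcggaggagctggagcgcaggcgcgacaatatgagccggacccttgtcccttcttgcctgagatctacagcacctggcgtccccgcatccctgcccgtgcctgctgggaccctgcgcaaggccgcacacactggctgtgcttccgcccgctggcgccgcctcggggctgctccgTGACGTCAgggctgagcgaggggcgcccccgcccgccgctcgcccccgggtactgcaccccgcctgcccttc
The element lies 68 to 61 bases before the start of Scg2 and 72 to 65 bases before that of Chgb. It is its own reverse complement, so it reads the same on both strands. It was found in the promoters of 2 of 16 tested granule genes with a promoter sequence, these same genes, and in 1.77% of 27025 genes and 3.15% of 6822 tested genes. The log2 differences beside these matches were -9.54 for Scg2 and -0.75 for Chgb.

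The insulin granule and processing genes were lower or level. Of 23 listed, 19 were tested, and 15 fell, 0 rose and 4 were not called, with a median of -0.71 against -0.05 for all tested genes. Scg3, secretogranin III, which sorts granins to the granule membrane, had signals of 2649, 2853 and 2642 at day 30, against 15409, 13773 and 14373 in endogenous beta cells (difference -3.28). Slc30a8, the zinc transporter ZnT8 that loads granules with zinc for insulin crystals, had 199, 192 and 205 at day 30, against 1403, 1269 and 1426 in endogenous beta cells (-2.97). These genes were measured in both groups, at clearly separate levels. Iapp, the amyloid peptide released with insulin, had 986, 1519 and 1530 at day 30, against 4504, 4926 and 5178 in endogenous beta cells, and the first day 30 array stands under the other 2. Ptprn, the granule membrane protein IA-2, fell by 3.22, and Vgf, a granin-like protein chosen after its values were seen, fell by 2.60. Pcsk2, the prohormone convertase 2, had 10570, 10461 and 10287 at day 30, against 11599, 11668 and 11548 in endogenous beta cells, and its fall of 0.85 was not called with median scaling (-0.19) or the deposited log10 values (-0.15). Pcsk1, the other insulin convertase, was not measured in either group, with signals of 57.3 to 63.2 at day 30, against 61.1 to 64.9 in endogenous beta cells, and was not tested.

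Among beta-cell maturity genes, 11 of 16 tested fell, 2 rose and 3 were not called (median -0.98). Syt4, a synaptotagmin that in mouse beta cells sets the calcium sensitivity of mature secretion, had signals of 89.2, 84.0 and 84.6 at day 30, against 9109, 9195 and 9224 in endogenous beta cells, at least 249-fold lower. Cltrn, the membrane protein collectrin, had 576, 542 and 574 at day 30, against 6061, 5972 and 6317 in endogenous beta cells (difference -3.80). Gjd2, connexin 36, which couples beta cells to each other, had 360, 349 and 353 at day 30, against 2615, 2719 and 2736 in endogenous beta cells (-3.13). Unlike Syt4, the last 2 were measured on all 6 arrays. The exceptions were Mafa and Trpm5. Mafa, an insulin gene activator, had signals of 442, 494 and 495 at day 30. Its signals of 81.4, 83.1 and 79.7 on the endogenous beta arrays were below the threshold of each. Mafa was thus at least 7.70-fold higher with this background correction (difference 3.14, but 2.26 without the correction and 1.17 with limma's own controls). Whether its probe reads the native message of endogenous beta cells was not tested. Trpm5, a cation channel, rose by 0.39, a call lost with median scaling (0.16).

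The islet transcription factors split. Of 14 tested, 7 fell, 4 rose and 3 were not called (median -0.23), while 39.9% of all tested genes fell and 34.5% rose. Isl1, a LIM-homeodomain factor of endocrine cells, had signals of 76.4, 80.0 and 74.5 at day 30, against 4332, 4379 and 4903 in endogenous beta cells, at least 95.1-fold lower and under the threshold on all 3 day 30 arrays. Pdx1, which drives pancreas formation and insulin transcription, had 192, 200 and 186 at day 30, against 1317, 1308 and 1343 in endogenous beta cells (difference -2.98 ± 0.10, SE). Nkx6-1, which holds beta-cell identity, had 366, 368 and 338 at day 30, against 2538, 2379 and 2769 in endogenous beta cells (-3.03 ± 0.16). Both remained measurable at day 30. Nkx2-2, another homeodomain factor, fell by 1.11. Pax4, a paired-homeodomain factor of beta-cell precursors, went the other way with 441, 446 and 469 at day 30, against 47.5, 46.5 and 49.6 in endogenous beta cells, at least 7.28-fold higher. Neurog3, the factor that starts the endocrine programme, had 156, 142 and 154 at day 30, against 106, 107 and 103 in endogenous beta cells, and was not called (0.66 ± 0.39, SE, adjusted p = 0.137), although with the 6 arrays alone it was called higher (0.73, adjusted p = 2.34e-05 by limma). Neurod1, which acts after Neurog3, rose by 0.41, a call lost with median scaling (0.17). A probe reads whichever messages hold its sequence, and whether it also reads a transcript delivered by the virus cannot be told from these files.

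Genes of glucose sensing and exocytosis were mostly lower, with 12 of 19 tested down, 5 up and 2 not called (median -0.58). Slc2a2, the glucose transporter GLUT2, had 502, 494 and 518 at day 30, against 546, 526 and 561 in endogenous beta cells, and its difference of 0.03 was not called and changed sign with scaling. Abcc8, the sulfonylurea receptor of the potassium channel, had 1050, 1072 and 981 at day 30, against 2581, 2316 and 2690 in endogenous beta cells (difference -1.43). Cacna2d1, an auxiliary calcium channel subunit, had 307, 317 and 316 at day 30, against 2417, 2331 and 2505 in endogenous beta cells (-3.14), and Cacna1a, a pore-forming calcium channel subunit, fell by 1.76. Stx1a, syntaxin 1A of the granule fusion machinery, was the main rise, with 1853, 1922 and 1781 at day 30, against 316, 309 and 322 in endogenous beta cells (2.77). Vamp2, which acts with it in fusion, rose by 0.73. Glp1r, the incretin receptor, was not measured at day 30 (72.1, 69.6 and 73.9 at day 30, against 101, 111 and 107 in endogenous beta cells). The endogenous beta signals lay little above the threshold, so it was at least 1.40-fold lower, a difference of -1.10 that was -0.10 with limma's own controls. G6pc2, a glucose-6-phosphatase subunit, fell by 1.33.

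**Figure D2:**
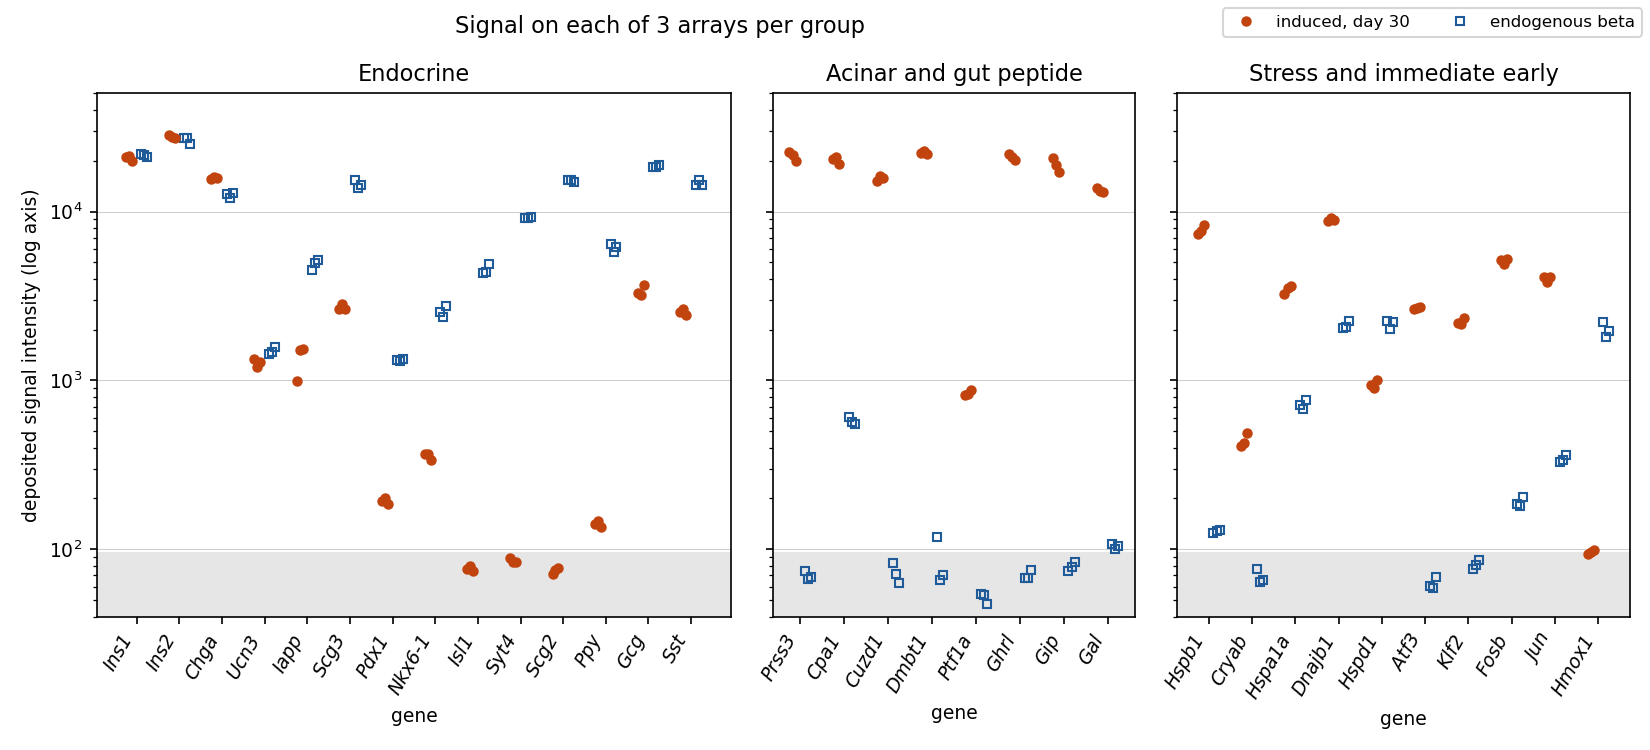
Deposited signal intensity, on a log axis, of named genes on each of the 3 day 30 arrays (orange circles) and the 3 endogenous beta arrays (blue squares), with grey shading below the highest detection threshold of the 6 arrays. Ins1, Ins2, Chga and Ucn3 lie close together in both groups, Isl1, Syt4 and Scg2 are inside the shading at day 30, and Prss3, Ghrl, Gip and Atf3 are inside it in endogenous beta cells.

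The hormones of alpha, delta and pancreatic polypeptide cells were far lower in the induced cells. Gcg, glucagon of alpha cells, had signals of 3302, 3194 and 3678 at day 30, against 18397, 18383 and 18860 in the arrays labelled endogenous beta cells (difference -3.32). Sst, somatostatin of delta cells, had 2551, 2655 and 2438 at day 30, against 14328, 15368 and 14357 in endogenous beta cells (-3.40). Ppy, pancreatic polypeptide, had 141, 148 and 136 at day 30, against 6447, 5790 and 6182 in endogenous beta cells (-6.16). The arrays labelled endogenous beta cells thus held strong messages of alpha, delta and pancreatic polypeptide cells beside insulin. The list of these other islet cell types had 9 tested members, of which 4 fell, 3 rose and 2 were not called, near the shares of all tested genes (39.9% lower and 34.5% higher). Its summed signal above the mean of the negative controls was 38516 to 38716 on day 30 arrays, against 58146 to 59489 on endogenous beta arrays. Such sums, here and below, add deposited signals that were not normalized between arrays, and a few bright genes can carry them. The rises were Slc38a5, an amino acid transporter that acinar cells also make (8723, 8817 and 8931 at day 30, against 756, 712 and 778 in endogenous beta cells), the retinol carrier Rbp4 (3.05) and transthyretin, Ttr (1.03). In bulk samples fewer cells of a type and less RNA per cell cannot be told apart, and the part of other islet cells in the falls of Scg2, Isl1 and other genes they also express was not tested. Pdyn, the dynorphin opioid precursor, was another large fall, with 80.3, 70.1 and 73.3 at day 30, against 7020, 7124 and 7388 in endogenous beta cells, at least 182-fold.

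The remaining 7 of the 12 largest falls were Enpp2, Sez6l, Gsdma, LOC240906, Crybb3, Ccdc190 and Diras2. Enpp2, autotaxin, which makes the signalling lipid lysophosphatidic acid, was at least 108-fold lower. Gsdma, a gasdermin of the pore-forming family, had signals of 67.1, 73.9 and 67.9 at day 30, against 3070, 2902 and 2971 in endogenous beta cells, at least 61.7-fold lower. Crybb3, a lens crystallin, had 123, 108 and 126 at day 30, against 5369, 5500 and 5507 in endogenous beta cells, and was the only 1 of the 7 measured at day 30. Diras2, a small GTPase of the Ras family, was at least 55.7-fold lower and Sez6l, a membrane protein best known from neurons, at least 57.5-fold lower. Genes that beta cells share with neurons numbered 15 tested, of which 10 fell and 2 rose (median -0.95), among them Syp, synaptophysin of small vesicles, which fell by 1.55. Nefm, a neurofilament protein, rose by 2.37.

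Genes of acinar cells made up many of the largest rises. Prss3, a trypsinogen, had signals of 22669, 21707 and 19932 at day 30, against 74.2, 66.3 and 68.3 in endogenous beta cells, at least 421-fold higher (difference 9.26 ± 0.27, SE, adjusted p = 7.98e-14). In acinar cells it had 18341, 19860 and 21065, of which only the highest lay within the day 30 range of deposited signals. After normalization all 3 acinar values (14.12, 14.21 and 14.16) lay within the day 30 range of 14.10 to 14.33. Every tested digestive enzyme rose, 22 of 22, by 2.49 to 9.26 with a median of 5.27, and every tested acinar secretory protein, 17 of 17, by 3.67 to 9.05 with a median of 6.93. Cpa1, carboxypeptidase A1, had 20540, 20991 and 19130 at day 30, against 608, 571 and 549 in endogenous beta cells (5.49). Pla2g1b, pancreatic phospholipase A2, had 17736, 15451 and 15495 at day 30, against 153, 134 and 139 in endogenous beta cells (7.33). Cuzd1, a zymogen granule membrane protein, had 15089, 16283 and 15815 at day 30, against 82.8, 71.1 and 62.9 in endogenous beta cells, at least 279-fold higher. Dmbt1, a mucosal glycoprotein, had 22290, 22692 and 21971 at day 30, against 118, 66.1 and 70.1 in endogenous beta cells, and the first endogenous beta array alone was above its threshold. The Reg3 lectins, secreted proteins of the acinar stress response, include Reg3d at least 188-fold higher, Reg3g at least 94.0-fold higher and Reg3a, measured in both groups, higher by 7.81. The uncharacterised genes 1810009J06Rik (19382, 18917 and 17141 at day 30, against 115, 103 and 117 in endogenous beta cells) and 2210010C04Rik (at least 96.7-fold) were also among the 12 largest rises. Ptf1a, the acinar master factor, had 820, 830 and 873 at day 30, against 54.2, 53.4 and 47.3 in endogenous beta cells, at least 13.8-fold higher. Bhlha15, a factor of secretory cell architecture also called Mist1, fell by 0.58, while Gata6 rose by 2.63.

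The summed signal of the 22 digestive enzymes above negative controls was 437514 to 462275 on day 30 arrays, against 14043 to 16804 on endogenous beta arrays, and 535876 to 553336 on acinar arrays. The day 30 cells thus lay nearer the acinar arrays on this sum. What part RNA of other acinar cells has in the sum was not tested. The group is labelled induced beta cells, and its arrays hold insulin and acinar messages at high levels together.

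Gut peptide genes gave some of the largest rises without a counterpart in acinar cells. Ghrl, ghrelin, an appetite hormone of the stomach and of epsilon cells in the islet, had signals of 22042, 21008 and 20201 at day 30, against 67.2, 67.9 and 75.4 in endogenous beta cells, at least 417-fold higher. In acinar cells it had 57.3, 52.6 and 60.6. Gip, the incretin of intestinal K cells, had 20882, 18974 and 17129 at day 30, against 74.1, 78.6 and 84.7 in endogenous beta cells, at least 357-fold higher, and 62.2, 62.1 and 67.5 in acinar cells. Neither peptide was measured in acinar or endogenous beta cells. Gal, the neuropeptide galanin, had 13780, 13199 and 13088 at day 30, against 107, 100 and 104 in endogenous beta cells (difference 7.52), and here acinar cells already had 5409, 5820 and 6333. Of 13 tested gut peptides, 7 rose, 3 fell and 3 were not called (median 0.39). Pyy, peptide YY, fell by 1.93. Among endocrine progenitor genes, 9 of 19 tested rose and 4 fell (median 0.26), with Fev, a factor of serotonin-producing neurons and of endocrine precursors, at least 3.40-fold higher.

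The heat shock genes did not move as a block. Of 15 tested, 6 rose, 7 fell and 2 were not called, with a median of -0.06. These counts lie near the shares of all tested genes, of which 34.5% rose and 39.9% fell. Hspb1, the small heat shock protein HSP27, had signals of 7366, 7680 and 8271 at day 30, against 125, 128 and 130 in endogenous beta cells, a difference of 6.31 ± 0.07 (SE, adjusted p = 8.51e-19). In acinar cells it had 318, 273 and 326, far below the induced cells. Cryab, the related alpha B crystallin, had 407, 426 and 486 at day 30, against 76.3, 64.1 and 65.4 in endogenous beta cells, at least 7.04-fold higher. Hspa1a, the inducible HSP70, had 3264, 3517 and 3602 at day 30, against 712, 676 and 765 in endogenous beta cells (2.36), and its partner Dnajb1, chosen after its values were seen, had 8796, 9208 and 8913 at day 30, against 2036, 2068 and 2254 in endogenous beta cells (2.02). All 4 were separate between the groups on every array, as were 86.1% of all tested genes. Bag3, a co-chaperone of HSP70, fell by 1.41 and Ahsa1, an activator of HSP90, by 0.93.

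The mitochondrial chaperonin genes moved in opposite directions although they start next to each other. Hspe1, the HSP10 lid of the chaperonin, had 1104, 1248 and 1167 at day 30, against 742, 747 and 870 in endogenous beta cells (difference 0.65 ± 0.15, SE, chosen after its values were seen). Hspd1, the HSP60 barrel, had 940, 904 and 1011 at day 30, against 2239, 2027 and 2220 in endogenous beta cells (-1.26 ± 0.09). They lie head to head on mouse chromosome 1, with the start of Hspe1 at 55088148 on the plus strand and annotated starts of Hspd1 at 55088243 and 55087932 on the minus strand, 95 and 216 bases away. The 250 bases before Hspe1, chr1:55087898-55088147 on the plus strand of GRCm38.p6 from RefSeq, are shown because they also hold the second annotated start of Hspd1, with a match to the heat shock element in capitals.
Hspe1: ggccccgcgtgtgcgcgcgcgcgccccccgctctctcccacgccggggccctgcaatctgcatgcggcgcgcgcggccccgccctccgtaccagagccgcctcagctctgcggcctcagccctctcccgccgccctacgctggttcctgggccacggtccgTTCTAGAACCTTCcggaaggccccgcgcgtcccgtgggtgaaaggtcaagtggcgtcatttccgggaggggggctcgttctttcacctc
The motif searched was 3 alternating blocks, GAA, TTC and GAA, set apart by any 2 bases, or the reverse complement on the other strand, and the match TTCTAGAACCTTC lies 89 to 77 bases before the start of Hspe1. Of 12 tested heat shock genes with a promoter sequence, 2 held a match, Hspd1 and Hspe1, as did 0.514% of 27025 genes and 0.528% of 6822 tested genes. The shared match sits beside a rise of Hspe1 and a fall of Hspd1, and Hspb1, Hspa1a and Dnajb1, which rose at least 2-fold, had no match in this window.

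Immediate early genes were higher in the induced cells. Of 20 tested, 18 rose, 16 of them at least 2-fold, and 2 fell, with a median of 2.21. Atf3, a stress-induced transcription factor, had signals of 2660, 2679 and 2733 at day 30, against 60.7, 59.3 and 69.0 in endogenous beta cells, at least 43.3-fold higher. Fosb, a partner of Jun in the AP-1 factor, had 5162, 4885 and 5241 at day 30, against 187, 181 and 203 in endogenous beta cells (difference 5.06). Klf2, a zinc finger factor, had 2178, 2151 and 2345 at day 30, against 76.6, 81.1 and 86.6 in endogenous beta cells, at least 36.2-fold higher. Fos and Jun were already measured in endogenous beta cells: Fos had 7646, 7816 and 7729 at day 30, against 2091, 1950 and 2335 in endogenous beta cells (1.79), and Jun, chosen after its values were seen, had 4077, 3852 and 4106 at day 30, against 330, 337 and 360 in endogenous beta cells (3.73). The falls were Nr4a2, an orphan nuclear receptor (-1.13), and Ier3 (-0.43, lost in 7 of 18 alternatives). The summed deposited signal of the list was 66525 to 67788 on day 30 arrays, against 15369 to 17250 on endogenous beta arrays and 3381 to 4429 on acinar arrays. After normalization, acinar means lay above endogenous beta means for Klf2 (7.93, against 5.29), Atf3 (6.43, against 4.75), Jun (9.4, against 7.8) and slightly Fosb. They lay below them for Fos (9.75, against 10.68), Nr4a2 (6.29, against 8.23) and Ier3 (8.39, against 10.12). The labels' protocol names sorting for the induced cells alone, so the preparation and the kind of cell cannot be told apart here.

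Growth arrest and p53 target genes numbered 17 tested, of which 10 rose, each at least 2-fold, and 6 fell. Their median of 1.08 was 0.68 with unmeasured sides at their bounds, 0.58 without background correction and 0.12 with limma's own controls. Cdkn1a, the cell cycle inhibitor p21, had signals of 2643, 2615 and 2677 at day 30, against 650, 648 and 688 in endogenous beta cells (difference 2.11). Gadd45b, a stress-signal adaptor, rose by 3.47 and Bbc3, the cell death activator Puma, by 2.64. The cell death effector Bax went the other way, with 156, 141 and 145 at day 30, against 1058, 1086 and 1152 in endogenous beta cells (-3.21), as did Sesn2, a stress sensor of metabolism (-1.98). Cell cycle genes were mixed, with 4 of 12 tested higher and 3 lower, beside 34.5% higher and 39.9% lower among all tested genes. Ccnd2 and Ccnd1, the D-type cyclins, fell by 2.83 and 2.30, and the replication helicase gene Mcm6 was at least 2.35-fold higher.

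The unfolded protein response was lower or mixed, with 10 of 17 tested genes down, 4 up and 3 not called (median -0.60). Pdia3, a disulfide isomerase of the endoplasmic reticulum, had 2471, 2550 and 2538 at day 30, against 11081, 10962 and 11359 in endogenous beta cells (difference -2.86), and Trib3, a stress pseudokinase, fell by 1.93. Eif2ak3, the stress kinase PERK, rose by 1.98. Among genes of oxidative stress, 10 of 17 fell and 6 rose (median -0.31), beside 39.9% lower and 34.5% higher among all tested genes. This median was -0.09 with the deposited log10 values. Hmox1, heme oxygenase 1, had 94.3, 96.7 and 99.2 at day 30, against 2211, 1799 and 1974 in endogenous beta cells (-5.11), and the cystine importer Slc7a11 was at least 3.71-fold lower, a difference of -2.64 that was -0.44 with limma's own controls. Txnip, a thioredoxin inhibitor induced by glucose in beta cells, had 6124, 6346 and 6160 at day 30, against 552, 524 and 571 in endogenous beta cells (3.64), and the metallothionein Mt2 rose by 2.91.

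Central metabolism differed mainly in single enzymes. Glycolysis genes were lower for 10 of 16 tested enzymes and transporters and higher for 4 (median -0.64). Pfkp, a phosphofructokinase, was at least 7.57-fold lower (difference -3.14, and -2.19 without background correction), and Eno2 and Eno1, enolases, fell by 3.08 and 2.39. Genes that mature beta cells normally keep silent rose for 16 of 19 tested members and fell for 0 (median 2.50), and 17 of the 19 were measured on all 3 acinar arrays. Zyx, a focal adhesion protein, had 10659, 10089 and 9746 at day 30, against 623, 557 and 558 in endogenous beta cells (4.28) and 527, 451 and 550 in acinar cells. These deposited signals are not normalized between arrays. After normalization Zyx averaged 10.18 in acinar cells, 8.59 in endogenous beta cells and 12.87 at day 30. The respiratory chain (10 higher and 12 lower of 28) and the cytosolic ribosome (7 higher and 13 lower of 30) lay near the median of all genes at -0.11 and -0.10, and both medians turned positive with median scaling (0.19 and 0.33) and with the deposited log10 values (0.23 and 0.37). Cholesterol synthesis genes fell in 7 of 14 and rose in 3, shares near those of all tested genes (39.9% and 34.5%), with Lss, lanosterol synthase, down by 1.87 and Insig1, a sensor that restrains the pathway, up by 1.64.

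**Figure D3:**
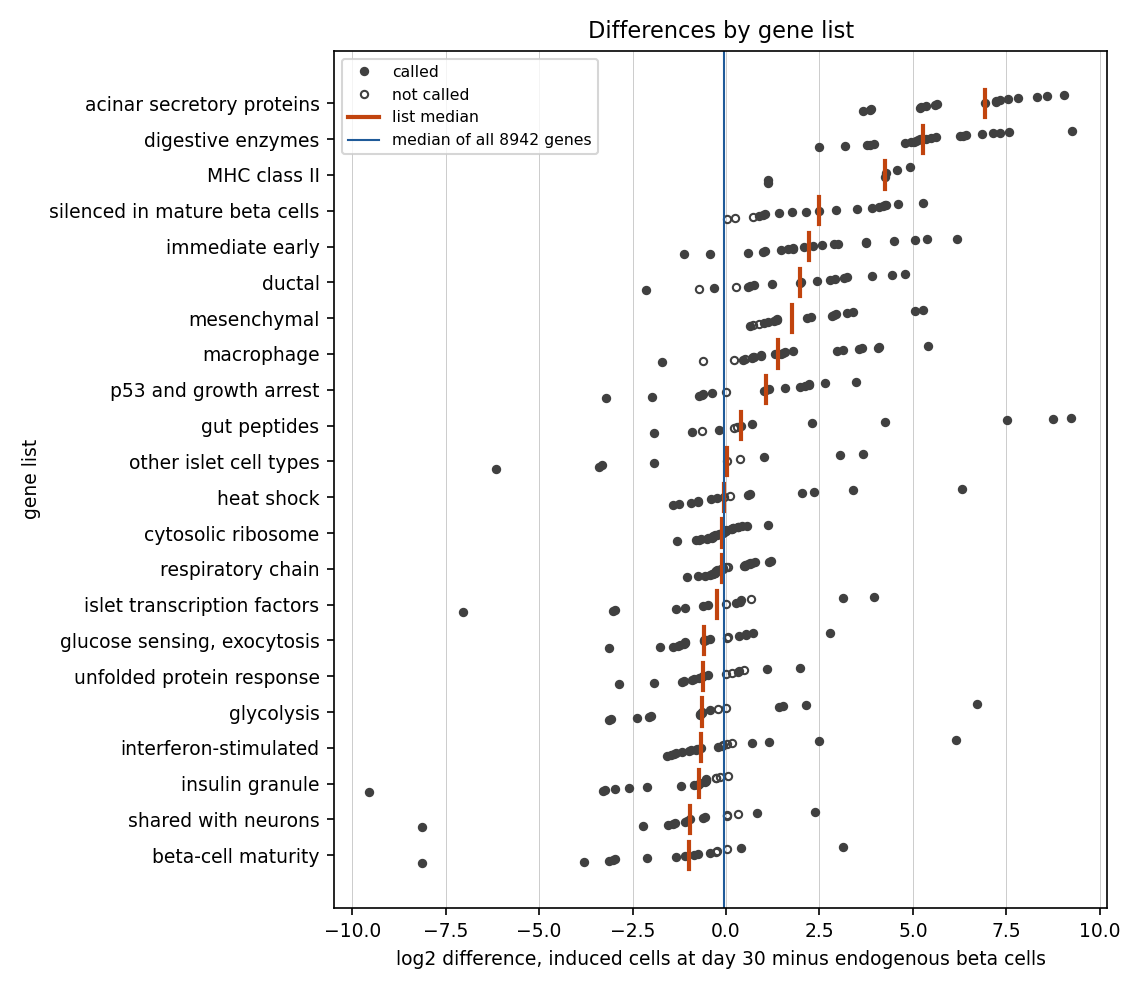
Log2 difference, induced cells at day 30 minus endogenous beta cells, for the tested members of 22 gene lists, ordered by list median (orange bars). Filled points were called and open points were not, the blue line is the median of all 8942 genes (-0.05), and every digestive enzyme and acinar secretory protein lies right of 2.

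Markers of other cell types also differed. Of 18 tested ductal genes 14 rose and 2 fell (median 1.99). Their summed deposited signal was 74978 to 75846 on day 30 arrays, against 23193 to 25140 on endogenous beta arrays and 8615 to 10534 on acinar arrays. Of the tested members 15 were measured on all 3 day 30 arrays, 10 on all 3 endogenous beta arrays and 14 on all 3 acinar arrays. Muc1, a mucin of duct surfaces, had 1768, 1794 and 1752 at day 30, against 92.7, 92.4 and 93.7 in endogenous beta cells (difference 4.78), but Krt7, a duct keratin, had 1372, 1298 and 1234 at day 30, against 4844, 4712 and 4939 in endogenous beta cells (-2.15). The other duct keratin Krt19, chosen after its values were seen, was at least 7.28-fold higher. Krt7 was thus high in the endogenous beta arrays, in which Krt19 was not measured. In acinar cells the mean log2 normalized signal of Muc1 was 11.81, above the 10.34 of day 30. Krt7 (6.97, against 9.88 at day 30) and Krt19 (6.87, against 8.35 at day 30) were lower in acinar cells.

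Mesenchymal genes were called higher for 15 of 18 tested members and lower for 0 (median 1.77, which was 1.06 without background correction and 0.25 with limma's own controls), with 16 members measured on all 3 day 30 arrays, against 0 on all 3 endogenous beta arrays. Their summed signal was 3917 to 4108 at day 30, against 54 to 57 in endogenous beta cells, and 2796 to 3580 in acinar cells. Dcn, the matrix proteoglycan decorin, had 1096, 1198 and 1226 at day 30, against 47.5, 52.0 and 52.7 in endogenous beta cells, at least 18.9-fold higher. After normalization Dcn averaged 11.44 in acinar cells, above the 9.73 of day 30. Of 22 tested macrophage genes 18 rose and 1 fell, with sums of 4433 to 4729 at day 30, against 613 to 662 in endogenous beta cells, and 1384 to 1801 in acinar cells. Lyz2, lysozyme of macrophages, had 483, 516 and 503 at day 30, against 49.5, 50.3 and 49.7 in endogenous beta cells. After normalization Lyz2 averaged 8.6 in acinar cells and 8.5 at day 30, while Laptm5, also of the macrophage list, averaged 8.45 and 9.06. All 6 tested genes of MHC class II, which presents antigen on professional immune cells, rose (median 4.27), among them H2-Aa with 910, 928 and 941 at day 30, against 50.2, 57.9 and 50.7 in endogenous beta cells. Of 11 tested endothelial genes 5 rose and 6 were not called, beside 34.5% higher among all tested genes. Their median of 0.33 was 0.03 with limma's own controls, and 4 of the 11 were not measured in either group. Plvap, a protein of vessel pores, was the largest rise of this list, at least 16.1-fold higher. Of 16 lymphocyte genes only Cd3e, a T-cell receptor subunit, passed the filter, and it was at least 2.95-fold higher, a difference of 2.17 that was 0.35 with limma's own controls. Hba-a1, an alpha globin of red cells, had 282, 316 and 288 at day 30, against 51.8, 59.8 and 55.3 in endogenous beta cells, beside 11005, 10265 and 12743 in acinar cells. The part of these other cells in the differences above was not tested.

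Interferon-stimulated genes were lower in 11 of 19 tested cases and higher in 4, 30 days after the adenovirus was injected. Their median of -0.67 was -0.43 without background correction and -0.09 with limma's own controls. Their summed signal went the other way, at 10655 to 10824 on day 30 arrays, against 5272 to 5574 on endogenous beta arrays. Most of the gap between these sums is the signal of 1 gene, Ifitm3, given below. Usp18, a brake on interferon signalling, had 212, 204 and 218 at day 30, against 558, 512 and 581 in endogenous beta cells (difference -1.40). Ifitm3, a membrane protein that blocks virus entry, was the opposite extreme with 4066, 3911 and 3943 at day 30, against 86.1, 81.2 and 80.0 in endogenous beta cells, at least 63.1-fold higher, and acinar cells had 5071, 5130 and 6041. Of 10 tested MHC class I genes, 4 rose and 1 fell, beside 34.5% higher and 39.9% lower among all tested genes. Genes of the Hippo and TEAD pathway, which controls organ size, rose for 7 of 8 tested members, and the eighth was not called, with Tead2 at 356, 324 and 306 at day 30, against 59.3, 64.4 and 57.1 in endogenous beta cells, at least 5.15-fold higher, beside 2285, 2466 and 2626 in acinar cells.

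The same genes were set beside their levels at the other times. The day 60 comparisons share the day 30 or the endogenous beta arrays with the one above; 77.7% of tested genes were called between day 60 and endogenous beta cells and 61.8% between day 60 and day 30. Scg2 averaged 4.44 ± 0.09 at day 10, 4.82 ± 0.14 at day 30, 6.38 ± 0.38 at day 60 and 6.58 ± 0.28 at 7 months, against 14.36 ± 0.03 in endogenous beta cells (log2 normalized signal, SD, n = 3 each). At day 60 it was measured on all 3 arrays and was still 7.98 log2 units under endogenous beta cells. In acinar cells Scg2 averaged 7.54 ± 0.19 and was measured on all 3 arrays, above the mean of each induced group. Isl1 was 4.88 ± 0.10 at day 30 and 7.03 ± 0.41 at day 60, against 11.91 ± 0.07 in endogenous beta cells, a day 60 minus day 30 difference of 2.15 that was called. In acinar cells Isl1 averaged 6.17 ± 0.16 and was also measured on all 3 arrays. Iapp had 9.92 ± 0.36 at day 30 and 11.60 ± 0.35 at day 60, against 12.04 ± 0.12 in endogenous beta cells, and at day 60 it was no longer called lower than endogenous beta cells (-0.44, adjusted p = 0.0605). Ucn3 was 6.38 ± 0.17 at day 10, 9.86 ± 0.09 at day 30 and 10.24 ± 0.18 at day 60, against 10.12 ± 0.05 in endogenous beta cells.

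Hspa1a, Atf3 and Hspb1 were above the endogenous level at day 60 too, while Hspe1 was 7.75 ± 0.23 at day 60, against 9.08 ± 0.10 in endogenous beta cells. Hspa1a was 8.67 ± 0.07 at day 10, 11.29 ± 0.07 at day 30 and 13.16 ± 0.06 at day 60, against 8.93 ± 0.04 in endogenous beta cells, with a day 60 minus day 30 difference of 1.86. Atf3 was 10.22 ± 0.03 at day 10, 10.93 ± 0.02 at day 30 and 11.89 ± 0.23 at day 60, against 4.75 ± 0.16 in endogenous beta cells. Hspb1 was highest at day 30 among the group means, with 12.25 ± 0.05 at day 10, 12.47 ± 0.11 at day 30 and 11.61 ± 0.04 at day 60, against 6.16 ± 0.03 in endogenous beta cells. Ghrl was 13.78 ± 0.06 at day 10, 14.19 ± 0.08 at day 30 and 13.81 ± 0.14 at day 60, against 4.96 ± 0.14 in endogenous beta cells, while Gip was 14.02 ± 0.02 at day 10, 13.97 ± 0.16 at day 30 and 11.04 ± 0.95 at day 60, against 5.23 ± 0.13 in endogenous beta cells, with a day 60 minus day 30 difference of -2.92. Cpa1 was 14.14 ± 0.06 at day 10, 14.07 ± 0.04 at day 30 and 14.11 ± 0.07 at day 60, against 8.58 ± 0.12 in endogenous beta cells.

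**Figure D4:**
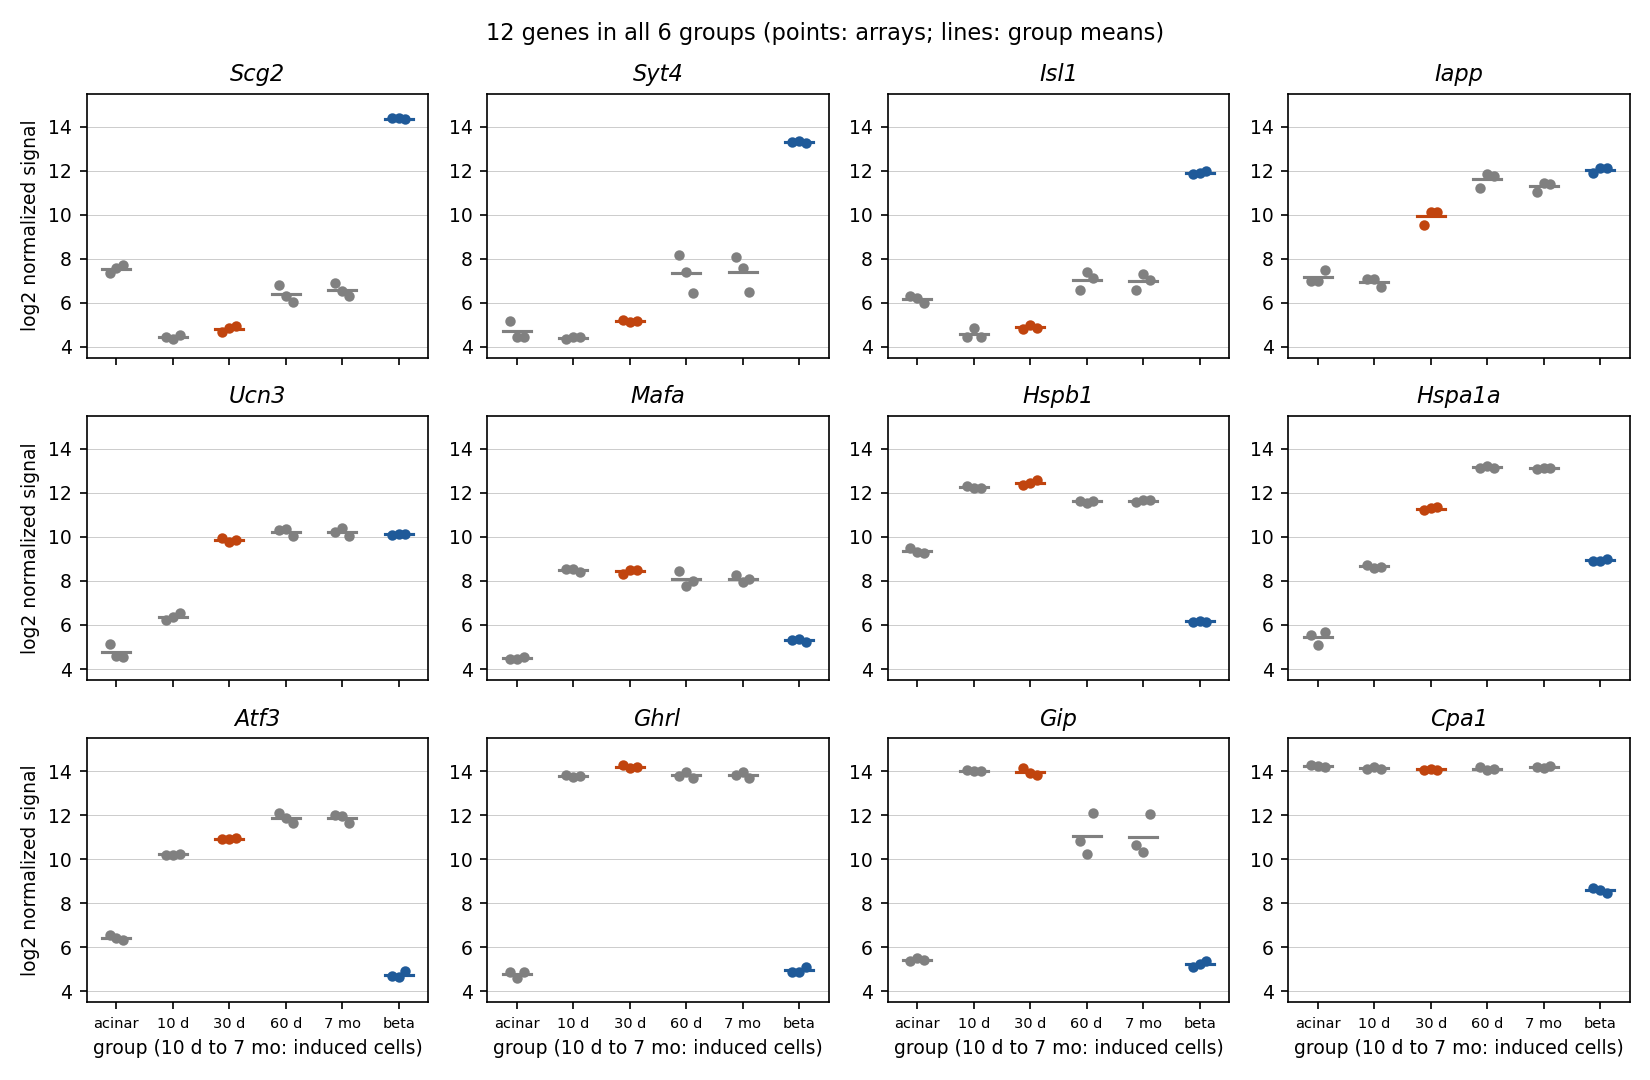
Log2 normalized signal of 12 genes on each array (points) with group means (lines), for acinar cells, induced cells at 10, 30 and 60 days and 7 months, and endogenous beta cells. Day 30 is orange and endogenous beta cells are blue; Scg2, Syt4 and Isl1 stay below endogenous beta cells at every induced time, Iapp and Ucn3 approach them by day 60, and the 60-day and 7-month points of the same number lie close together.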

How the data were processed

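RNA of 18 samples was hybridised to Illumina MouseRef-8 v2.0 arrays, per the labels' protocols. The authors deposited a table with 1 signal intensity and 1 detection p-value per symbol and array, per the file headers, and a matrix whose log10 values are the deposited signals to within 5.5e-10. Which software made the table, and how it combined probes of 1 symbol, the sources used here do not state. Detection p-values compare a symbol with 798 negative controls, whose mean and SD were inferred from them. Signals were background-corrected (normexp, offset 16), quantile normalized and put on the log2 scale, and tested with limma 3.58.1 in R 4.3.3 (lmFit and eBayes, 6 group means, residual df 12, prior df 2.90).

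Genes with a detection p under 0.01 on at least 3 arrays were tested (8942), and 9176 were left out. Of these, 319 were measured by signal on all 6 compared arrays, since symbols with several probes can have a high detection p at a bright signal. Ddx3y was among them. Symbols were updated through RefSeq names (12036 current, 4903 updated, 1179 kept).

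The comparison, its gene lists and the named genes were chosen with earlier results of these data known. Named are the 12 largest rises and falls among called genes with groups that do not overlap and detection on all arrays of the higher group, up to 3 called members per list and direction, Scg2, Hspb1, Ucn3 and a fixed set of islet, acinar and stress genes; some genes that this rule names are not reported here. In simulated data for this comparison with 8942 genes, 200 of them changed, 75% of 1.5-fold and 90% of 2-fold changes were recovered, and 6.78% of the calls made were false. The simulated noise was normal, with 1 spread per gene in all groups. In the real arrays 6653 genes were called, and the median SD was 0.059 in endogenous beta cells and 0.17 at 7 months. The simulated rates therefore cannot be carried over to the real calls. Alternatives were the background correction, scaling, filter, arrays in the fit, variance model and each array left out. Precision is limited by having 3 arrays in each group.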

Additional observations from a re-analysis of the deposited data

How the results depend on the processing

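The count of called genes stayed within 1.5 times of 6653 in all 18 alternatives, from 6055 to 7724. Without each array in turn 6055 to 6280 genes were called, 2887 to 2931 higher and 3142 to 3393 lower, and 2543 to 2707 past 2-fold. With limma's own inference of the controls the count past 2-fold was 1271, and with normexp on an offset of 50 and no controls it was 1793, against 2713; an offset of 50 shrinks differences of dim genes by construction, and Sparc, Axl, Hk2, Vwf, Hba-a1 and Gata4 lost their call under limma's own controls. Median scaling gave 6802 calls, of which 18 shared calls had the opposite sign, and moved the median of all genes to -0.15. The deposited log10 values gave 6762, with 23 of opposite sign and a median of -0.01. Filtering on signal and leaving out the 7-month arrays, both chosen after seeing the data, gave 6945 and 6806 calls. Signs turned for Ins2 (0.024 with median scaling and 0.064 with the log10 values), Slc2a2 (-0.18 and -0.11), Chga (0.29 and 0.33) and Rps2 (0.028 with the log10 values). They also turned for the medians of the respiratory chain (0.19 and 0.23), the ribosome (0.33 and 0.37), the other islet cell types (-0.18 and -0.039, with a range of -0.0088 to 0.075 over single arrays left out, the lowest without endogenous beta replicate 2) and the cell cycle list (0.10 with the log10 values, 0.12 with detection on all 3 arrays of either group, 0.12 with the 6 arrays alone). Without background correction and with limma's own controls, list medians shrank for ductal genes (1.25 and 0.69, against 1.99), macrophage genes (0.85 and 0.14, against 1.38), the Hippo and TEAD list (1.31 and 0.31, against 2.16) and gut peptides (0.21 and 0.04, against 0.39). In the same settings they shrank for immediate early genes (1.68 and 1.75, against 2.21) and for beta-cell maturity genes (-0.72 and -0.69, against -0.98). With limma's own controls they also shrank for MHC class II (1.75), genes silent in beta cells (1.46), genes shared with neurons (-0.29) and glucose sensing (-0.15). The causes were not tested. Over named genes and alternatives, 3134 results kept their direction and side of the threshold, 52 lost and 14 gained a call, and 7 turned.

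Day 30 and endogenous beta arrays share replicate numbers, but same-numbered arrays did not deviate together (correlations of -0.0028, -0.00047 and 0.042), so the numbers do not pair them. A fit with the replicate block called 6752 genes. Signals near the threshold, about 90, limit what can be seen: 544 tested genes were not measured in either group, and 181 of them were called.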
